A study of Homo sapiens with 10 samples.

Results

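DLD-1 is a human colorectal cancer cell line. The comparison described here sets 3 arrays of 1 DLD-1 clone carrying the short hairpin RNA construct V2LHS_62675 against LMNB1 beside 3 arrays of clones carrying an empty vector, which is 6 of the 10 samples of the series, chosen by their titles. Across all arrays, 14432 of 22011 probes carry 1 gene symbol, and 11196 genes above a filter on dim probes were tested with the probe for LMNB1 as 1 more feature.

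All 6 samples are DLD-1 cells grown in RPMI with 10% serum under puromycin, and each comes from a single cell clone made after transfection. The empty vector samples are 3 different clones. The hairpin samples are 3 repeats of 1 clone by their descriptions and the design text, where it is clone 2, while their titles say clone 12 and biological replicate. They were therefore averaged and counted as 1 clone, so that hairpin, integration and clone cannot be told apart. The samples used beside these were wild type DLD-1 cells, with no transfection and no puromycin (1 array), and clones 9 and 12 of construct V2LHS_62673, a different hairpin against LMNB1 (1 array each). For all samples RNA came from a Trizol preparation with ribosomal RNA removed.

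Lamin B1, the product of LMNB1, is an intermediate filament protein that is farnesylated and lines the inner face of the nuclear envelope. With lamin B2 and the A-type lamins it forms the nuclear lamina, which holds inactive chromatin at the nuclear edge and is tied to the cytoskeleton across the envelope. A short hairpin RNA is cut by the microRNA machinery into a guide that lowers the matching messenger RNA.

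The arrays had the markers of colon epithelium. Of 10 such markers, 9 were above the filter level of 5.89 in all 6 arrays, among them EPCAM at 11.32 to 11.67 and CDX2 at 8.81 to 9.13 on the deposited scale, which was taken as log2 from its range. KRT20, a keratin of mature colonocytes, was not above it, at 4.78 to 5.07. Above that level in all 6 arrays were also 3 of 8 leukocyte markers, 3 of 6 endothelial and 4 of 8 fibroblast markers, such as TYROBP at 6.68 to 7.08, TIE1 at 6.70 to 6.89 and COL1A1 at 7.34 to 7.63. Others of these lists were dim, with PTPRC at 3.82 to 4.11, PECAM1 at 4.51 to 4.80 and LUM at 3.65 to 3.84. The mean over the fibroblast markers was 5.71 to 5.81 in the hairpin arrays and 5.65 to 5.77 in the empty vector arrays, and the means over the leukocyte markers were 5.64 to 5.70 and 5.60 to 5.78.

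Array 1 of the hairpin clone stood apart from its repeats. Over all probes it correlated at 0.988 with array 2 and with array 3, which correlated at 0.994 with each other, and its highest correlation was 0.991, with clone 12 of V2LHS_62673. Array 1 was also at 0.990 with empty vector clone 1 and with clone 9 of V2LHS_62673, and at 0.989 with wild type cells. With empty vector clones 2 and 3 it was at 0.987 and 0.986. Array 1 lay more than 1 log2 unit from the mean of the other hairpin arrays in 38 of 11197 features, against 2 features for array 2 and 3 for array 3. In 109 features, arrays 2 and 3 were at least 1 unit from clone 12 of V2LHS_62673. Array 1 was nearer to arrays 2 and 3 in 58 of these and nearer to clone 12 in 51. The same count was not made with other arrays in the place of clone 12. The widest gaps below the other repeats were in H2AC12, a histone gene, at 7.58 in array 1 and 9.41 and 9.63 in arrays 2 and 3, and in COX7A2, a respiratory chain subunit, at 9.56 and then 11.01 and 11.31. COX6C, TUBA1B and H2AC4 followed with gaps of -1.34, -1.24 and -1.23. On the higher side the zinc transporter gene SLC30A7 was at 10.22 in array 1 and at 8.89 and 9.16 in the others, and the gaps of SNX2, RPP38, RPS10P7 and HCG8 were 1.04 to 1.11. None of these 10 genes passed the test against the empty vector clones. The array of clone 8 of V2LHS_62673 correlated at 0.922 to 0.925 with the hairpin arrays and was left out of the fit.

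The target was lower in every hairpin array. The only probe for LMNB1, which the annotation shares with PCIF1, was at 7.72, 7.72 and 7.56 in the hairpin clone and at 8.93, 9.17 and 8.84 in the empty vector clones. The groups did not overlap, and wild type cells at 9.52 lay above both. The difference was -1.31 (SE 0.15, 95% interval -1.65 to -0.97), a 2.48-fold lower level, with an adjusted p of 0.00379 in limma. Clones 9 and 12 of V2LHS_62673 had like levels, 7.70 and 7.45, and the difference of the hairpin clone from them was 0.10 (SE 0.16, adjusted p 0.933). PCIF1 has a probe of its own, on which the difference was -0.15 (SE 0.13, adjusted p 0.663). An exact permutation test of 1 clone against 3 cannot give a two-sided p under 0.25, so p-values here and below rest on the spread between these few clones, pooled over the groups. The call was lost with clone 8 in the fit (adjusted p 0.858) and with wild type cells among the controls (0.0897).

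No other lamina gene passed. LMNB2, the second B-type lamin, was at 9.62, 9.86 and 9.90 in the hairpin arrays and at 9.56, 9.51 and 9.56 in the empty vector clones. That is a difference of 0.25 (95% interval -0.01 to 0.52, adjusted p 0.309). For LMNA, which encodes the A-type lamins, the difference was 0.12 (95% interval -0.19 to 0.43), and for LBR, the lamin B receptor, 0.05 (95% interval -0.22 to 0.32). The arrays of both overlapped between the groups. In the list of the nuclear lamina and envelope, 0 of 18 tested genes were called, with differences from -0.47 to 0.46 and a median of 0.10, where the median of all genes was 0.02.

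With the LMNB1 probe among them, the hairpin clone differed from the empty vector clones in 421 features at an adjusted p under 0.05, 3.76% of those tested, with 174 higher (1.55%) and 247 lower (2.21%). The largest decreases were steeper than the largest increases, with 50 called features past 2-fold lower and 14 past 2-fold higher. Of the 421, 392 had hairpin and empty vector arrays that did not overlap, as did 27.0% of all features. The count varied with the samples in the fit: it was 7 with wild type cells among the controls, 72 and 73 without empty vector clone 2 or 3, 717 with the empty vector clones and the hairpin clone alone or without clone 9 or 12 of V2LHS_62673, 272 without array 3, and 0 with clone 8 in the fit, where 298 had an unadjusted p under 0.05. Without array 1 of the hairpin clone it was 1021 (620 higher and 401 lower), and after quantile normalization 288 (89 higher and 199 lower).

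**Figure D1:**
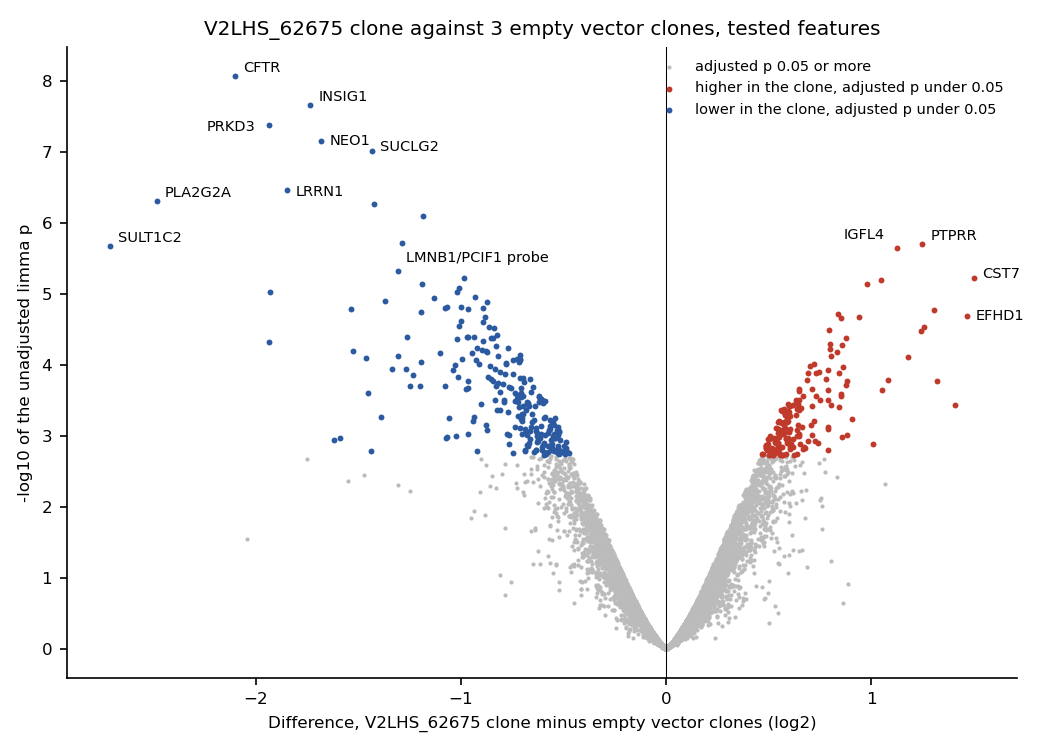
Each point is a tested feature outside chromosome Y, with the log2 difference between the V2LHS_62675 clone and the mean of 3 empty vector clones on the x axis and -log10 of the unadjusted limma p on the y axis; red and blue points have an adjusted p under 0.05. The blue side reaches further, with SULT1C2 at -2.71 and CFTR at -2.10, than the red side, where CST7 is at 1.50.

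Among the decreases, CFTR, the chloride channel of the apical membrane of gut epithelium, was the most even. It was at 6.03, 6.04 and 6.04 in the hairpin arrays and at 8.24, 8.18 and 7.98 in the empty vector clones. These hairpin values lay just above the filter level for dim probes, 5.89, and markers of other cell types read both above and below it. Whether CFTR RNA was still detected at these values was not tested. Nothing is therefore read from their evenness, and the size of the fall is less certain. Wild type cells at 8.24 and the V2LHS_62673 clones at 8.21 and 8.23 stood with the empty vector clones, so that only the 3 arrays of this hairpin clone were low among the 9 arrays. The difference was -2.10 (SE 0.13, adjusted p 9.54e-05), 4.28-fold. PRKD3, a protein kinase D family member, was divided the same way, at 6.19, 6.52 and 6.33 in the hairpin arrays against 8.42, 8.28 and 8.14, with 8.12 in wild type cells (difference -1.93, SE 0.14, adjusted p 1.55e-04). So was NEO1, the netrin and repulsive guidance receptor neogenin, at 7.90, 7.46 and 7.46 against 9.17, 9.40 and 9.29 (difference -1.68, SE 0.13), with wild type cells between them at 8.68.

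Other large decreases had wild type cells near the hairpin clone. SULT1C2, a cytosolic sulfotransferase, was at 6.93, 6.80 and 6.60 in the hairpin arrays and at 9.05, 9.67 and 9.75 in the empty vector clones. This was the largest difference, -2.71 (SE 0.29, adjusted p 0.00193), yet wild type cells were at 7.36. PLA2G2A, a secreted phospholipase A2 of goblet and Paneth cells, was at 6.59, 6.43 and 6.25 against 9.01, 9.11 and 8.61 (difference -2.48, SE 0.23, adjusted p 7.54e-04). Here wild type cells were at 7.15 and the V2LHS_62673 clones at 7.24 and 6.64, so the empty vector clones were the high samples. LRRN1, a leucine-rich repeat membrane protein, had the same pattern. It was at 5.66 to 5.96 in the hairpin arrays and at 7.48 to 7.80 in the empty vector clones. Wild type cells were at 5.66 and the V2LHS_62673 clones at 5.59 and 5.95. The low LRRN1 values lay around the filter level for dim probes, so the size of its difference is less certain. Selection and transfection also separate wild type cells from the rest, and their part in these levels was not tested.

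The remaining genes among the 15 largest decreases had differences from -1.94 to -1.45. NPNT, an extracellular matrix ligand of integrins, fell by 1.93. SATB1, a nuclear protein that organises chromatin loops, fell by 1.46 from a mean of 6.67 to 5.20. The V2LHS_62673 clones were at 7.95 and 7.62. The hairpin mean of SATB1 lay below the filter level for dim probes, so the size of its fall is less certain. Whether SATB1 RNA was still detected there was not tested. PPARGC1A, the coactivator of mitochondrial biogenesis PGC-1alpha, fell by 1.54, ULBP1, a ligand of the natural killer cell receptor NKG2D, by 1.59, and MUC13, a transmembrane mucin of gut epithelium, by 1.45. TMEM47, TCP11L2 and LURAP1L were also lower, by -1.94, -1.62 and -1.53.

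The increases were smaller. CST7, which encodes the protease inhibitor cystatin F, was at 11.18, 11.17 and 11.18 in the hairpin arrays and at 9.71, 9.60 and 9.72 in the empty vector clones, a rise of 1.50 (SE 0.18, adjusted p 0.00422). Wild type cells were between them at 10.21, and the V2LHS_62673 clones at 10.16 and 10.71. PTPRR, a phosphatase that acts on MAP kinases, was at 7.62, 7.59 and 7.70 against 6.22, 6.51 and 6.42, a rise of 1.25 (SE 0.13, adjusted p 0.00193). IGFL4, an insulin-like growth factor family member, was at 9.93, 9.52 and 9.41 against 8.55, 8.55 and 8.38, a rise of 1.13 (SE 0.12). For both, wild type cells (6.46 and 8.53) stood with the empty vector clones.

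EFHD1, a calcium-binding protein of mitochondria, rose by 1.47, and PHLDB2, which anchors microtubules at the cell cortex, by 1.41. SLC1A3, a glutamate transporter, rose by 1.05, with wild type cells at 7.82 nearer the hairpin clone. KCNQ5, a potassium channel, rose by 1.08, with wild type cells at 7.70 between the groups. TNNC1, troponin C of slow and cardiac muscle, rose by 1.30, from 8.86 to 9.10 in the empty vector clones to 9.56, 10.68 and 10.53, with array 1 lowest and a difference of 1.65 without it. CCNQ, a cyclin, rose by 1.01 with array 1 at 7.66 just above the highest empty vector value of 7.59 and the other repeats at 8.63 and 8.95, and its difference without array 1 was 1.39. ZNF493 (1.32), ZNF738 (1.26) and RPL27A (1.24) belong to families with close copies, so probes may take signal from relatives and their identity is less certain. CCN1, TPRG1 and MB21D2 complete the 15, at 1.18, 1.05 and 0.98.

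Of the 30 genes, 30 lost their call with clone 8 in the fit, 26 with wild type cells among the controls, 10 and 13 without empty vector clone 2 or 3, and 0 without array 1. CFTR, PRKD3, PTPRR and IGFL4 kept it with wild type cells among the controls. None turned its direction in any alternative.

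**Figure D2:**
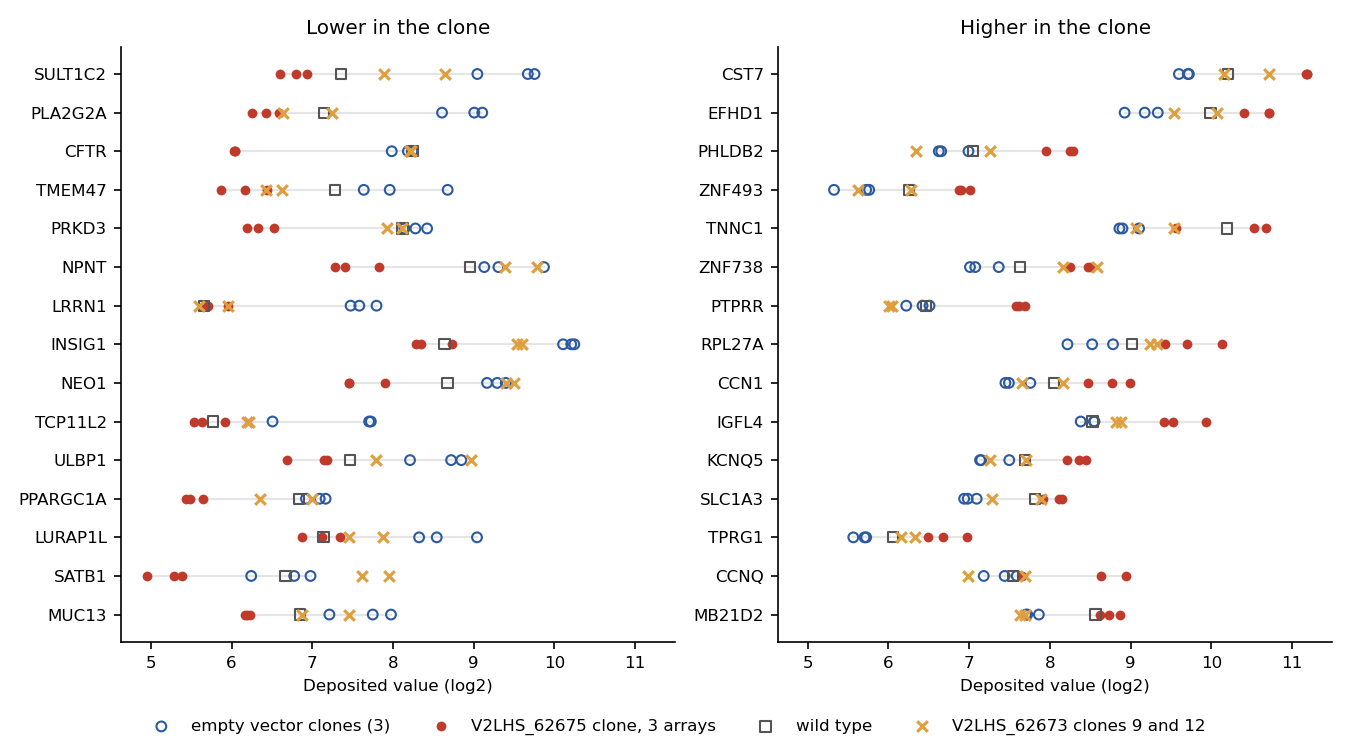
Deposited log2 values (x axis) of the 15 genes with the largest decrease and the 15 with the largest increase (rows), with 1 point per array: filled circles for the 3 V2LHS_62675 arrays, open circles for the 3 empty vector clones, squares for wild type cells and crosses for clones 9 and 12 of V2LHS_62673. In CFTR and PRKD3 every other array lies with the empty vector clones, and in LRRN1 wild type cells at 5.66 lie with the hairpin clone.

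Genes of cholesterol and fatty acid synthesis were lower as a group. Sterol synthesis is governed by SREBP transcription factors, which INSIG1 holds in the endoplasmic reticulum when sterols are plentiful, and INSIG1 is itself an SREBP target. Of 25 tested genes of this list, 8 fell and 0 rose, 32.0% against 3.76% of all features. The list's median difference was -0.44, with 22 of 25 below 0, where the median of all genes was 0.02.

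INSIG1 fell most, from 10.11, 10.25 and 10.21 in the empty vector clones to 8.34, 8.74 and 8.28 in the hairpin arrays (difference -1.73, SE 0.12, adjusted p 1.25e-04), 3.32-fold. Wild type cells at 8.64 were within the hairpin range, and the V2LHS_62673 clones at 9.60 and 9.53 lay between. TM7SF2, a sterol reductase, fell by 0.89 and was at 8.27, 8.41 and 8.38 against 9.24, 9.17 and 9.30. LSS, lanosterol synthase, was at 8.22, 8.41 and 8.39 against 9.14, 9.05 and 9.01, a fall of 0.73 (SE 0.12, adjusted p 0.0115). ACSS2, which makes acetyl-CoA from acetate, fell by 0.78. The methyl sterol oxidase MSMO1 and HMGCS1, which makes HMG-CoA, each fell by 0.70, the fatty acid desaturase SCD by 0.50 and DHCR7, the last enzyme of cholesterol synthesis, by 0.49. Squalene epoxidase SQLE (-0.44, adjusted p 0.126), SREBF1 (-0.36, adjusted p 0.359) and IDI1 (-0.61, adjusted p 0.0678) did not pass, and EBP had the highest value, 0.39 (adjusted p 0.145). The choice of these 4 followed their values.

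The list's median was alike in the 3 hairpin arrays, -0.46, -0.37 and -0.45 against the empty vector mean, and within 0.02 of that mean in each empty vector clone. It was -0.44 in wild type cells, and -0.06 and -0.12 in clones 9 and 12 of V2LHS_62673. All 8 calls were lost with wild type cells among the controls or with clone 8 in the fit. Without empty vector clone 2 or 3, 3 and 4 decreases were called, where the count over all features fell too. The median stayed between -0.49 and -0.32 over all alternatives.

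**Figure D3:**
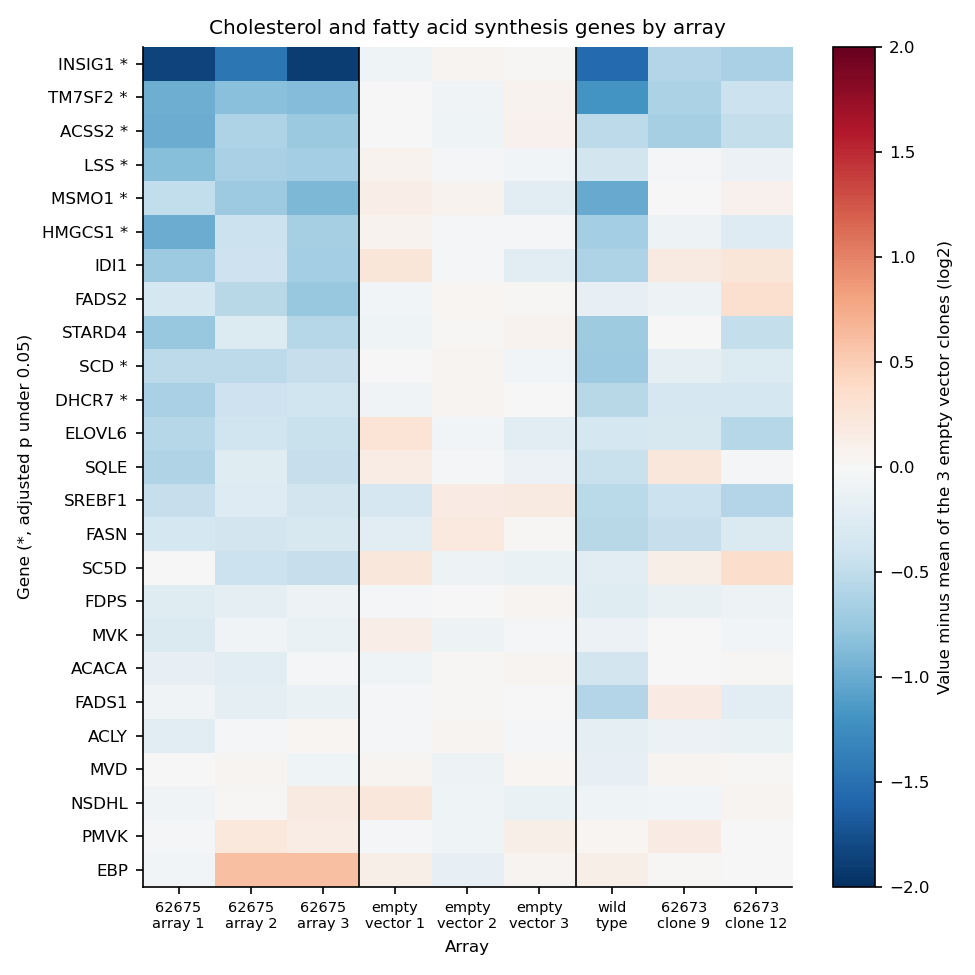
Rows are the 25 tested cholesterol and fatty acid synthesis genes, ordered by difference, and columns are 9 arrays; colour gives the log2 value minus the mean of the 3 empty vector clones, and stars mark the 8 genes with an adjusted p under 0.05. Blue fills the upper rows of the 3 V2LHS_62675 columns and of the wild type column, and the columns of clones 9 and 12 are paler.

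Because these genes were lower together, the 250 bases before their RefSeq start sites (GRCh38.p14) were searched on both strands for 9 motifs. The sterol element TCACNCCAC occurred in 0 of 33 promoters of the list's 23 genes in the RefSeq table and in 0.883% of all 35116 promoters. The CCAAT box, bound by NF-Y, which works beside SREBP at sterol genes, occurred in 22 of 33 (66.7%) and in 32.0% of all. It was in 8 of the 11 promoters of the 8 called genes, with at least 1 in each gene. The list was not alone in this, as the G2/M and mitosis genes had it in 31 of 40 promoters (77.5%) and the unfolded protein list in 29 of 47 (61.7%). The GC box, GGGCGG, was in 29 of the 33 promoters (87.9%) and in 42.6% of all, and in 19 of 21 (90.5%) of the cohesin and condensin list. All promoters here include those of genes that were not tested. These motifs were chosen for print after their matches were seen, and a match describes letters only. The promoters of 3 genes are shown for the genes whose arrays separate most clearly, each 5′ to 3′ toward the gene, with the CCAAT box, here on the reverse strand as ATTGG, in capitals. They lie at chr7:155297628-155297877 on the plus strand for INSIG1, chr11:65111622-65111871 on the plus strand for TM7SF2 and chr21:46228775-46229024 on the minus strand for LSS.
INSIG1: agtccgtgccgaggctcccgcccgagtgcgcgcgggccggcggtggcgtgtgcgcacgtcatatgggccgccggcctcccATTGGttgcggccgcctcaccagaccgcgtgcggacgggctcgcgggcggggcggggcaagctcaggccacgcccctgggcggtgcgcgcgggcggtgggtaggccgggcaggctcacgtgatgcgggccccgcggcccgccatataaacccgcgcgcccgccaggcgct
TM7SF2: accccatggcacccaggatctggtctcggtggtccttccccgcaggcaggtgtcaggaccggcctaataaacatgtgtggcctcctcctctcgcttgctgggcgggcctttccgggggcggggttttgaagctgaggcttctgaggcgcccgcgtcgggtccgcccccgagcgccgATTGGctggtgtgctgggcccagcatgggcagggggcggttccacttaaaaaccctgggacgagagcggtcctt
LSS: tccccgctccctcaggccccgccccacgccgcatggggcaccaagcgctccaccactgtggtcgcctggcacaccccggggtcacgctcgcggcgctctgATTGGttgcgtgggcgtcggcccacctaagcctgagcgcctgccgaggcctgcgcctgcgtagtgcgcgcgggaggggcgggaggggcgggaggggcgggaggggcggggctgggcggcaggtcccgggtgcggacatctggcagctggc

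A minority of the DNA replication genes rose. Of 51 tested replication and S phase genes, 6 rose and 0 fell (11.8%, against 3.76% of all features, 1.55% higher), and 45 did not pass, with a median of 0.30 and 47 of 51 above 0. GINS3, a subunit of the replicative helicase, rose from 9.16, 9.02 and 9.04 to 9.75, 9.99 and 9.98 (difference 0.83, SE 0.13, adjusted p 0.0106). RPA2, of the complex that coats single strands, rose by 0.65, MCM2 and MCM5 of the helicase ring by 0.59 and 0.49, ORC6 of the origin complex by 0.52 and CDC45 by 0.52.

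Array 1 was low in this group. MCM2 was at 9.06 in array 1 and at 9.82 and 9.72 in arrays 2 and 3, against 8.90, 8.99 and 8.92, and CDC45 in array 1 (9.40) lay within the empty vector range of 9.27 to 9.48. The list's median was 0.08 in array 1 and 0.37 and 0.45 in the others, 0.35 in wild type cells, and 0.13 and 0.11 in the V2LHS_62673 clones. The empty vector clones themselves ranged from -0.09 to 0.13 around their mean. Without array 1, 17 of 51 rose, where 9.12% of all features were called, and without array 2 or 3, 3 and 1 did. Without empty vector clone 1, 16 rose, and without clone 2 or 3, or with wild type cells among the controls, the count was 0. The count over all features also differed between these settings, and was 0.0625% of them with wild type cells among the controls. Nothing is therefore read from the change in the list's count.

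Mitotic genes had a like median. Of 39 tested G2/M genes, 3 rose and 0 fell (7.69%, against 3.76% of all features), with a median of 0.26. The mitotic kinase gene PLK1 was at 10.90, 10.80 and 10.91 against 10.12, 10.32 and 10.16 (difference 0.67, SE 0.13), BIRC5, which encodes survivin, rose by 0.79 and PTTG1, securin, by 0.55. The list's median was 0.21, 0.24 and 0.32 in the 3 hairpin arrays and 0.29 in wild type cells, and the empty vector clones ranged from -0.14 to 0.13. Without empty vector clone 2 or 3 the count of mitotic genes was 0, and the count over all features fell too. In the list of cohesin and condensin 1 of 19 rose (5.26%, against 3.76%), the cohesin subunit SMC3 by 0.79, which at 8.12 in wild type cells and 8.00 and 8.20 in the V2LHS_62673 clones was low in the empty vector clones alone. Bulk arrays cannot tell a larger share of cycling cells from more RNA per cell.

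Signalling genes changed in small numbers. BMP and TGF-beta ligands act through SMAD proteins on target genes such as the ID family of transcription inhibitors. In this list 3 of 31 fell and 0 rose (9.68%, against 3.76% of all features), with a median of -0.12. ID1 fell from 10.83, 10.84 and 11.04 (mean 10.90) to 9.48, 10.10 and 10.12 (mean 9.90) (SE of the difference 0.13, adjusted p 0.00568), ID3 fell by 0.93 and SKIL, a feedback repressor of SMADs, by 0.71. Wild type cells were at 10.01 for ID1 and 8.14 for ID3, below all empty vector clones, and the V2LHS_62673 clones were at 10.31 and 10.13 for ID1. Without empty vector clone 2 or 3, 1 and 2 of the list fell, and the count over all features was lower too.

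Among targets of YAP, the effector of the Hippo pathway, 3 of 24 rose and 1 fell (16.7%, against 3.76% of all features). CCN1 rose from 7.45, 7.49 and 7.76 to 8.47, 8.77 and 9.00 (difference 1.18, SE 0.19, adjusted p 0.0113). CCN2 rose by 0.57 and F3, tissue factor, by 0.84, from 8.81 to 8.90 in the empty vector clones to 9.37, 9.86 and 9.90. TGFB2, a TGF-beta ligand, fell by 1.19. Without empty vector clone 2 or 3, 1 member rose in each case and TGFB2 lost its call, while the count over all features was lower too.

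The other lists with any call held 1 to 3 each, or 4.35% to 11.1% of their members against 3.76% of all features, and are given as single genes with nothing read from the counts. In the unfolded protein and amino acid stress list, HERPUD1 fell by 0.90 and TRIB3 by 0.62, 2 of 34, with a median of -0.19. DDIT4, a stress-induced inhibitor of mTORC1, had the list's largest difference, -1.75 (SE 0.43), but did not pass (adjusted p 0.0535) and varied within groups, from 8.98 to 10.08 in the empty vector clones. It was named after its value was seen. Among hypoxia genes the carbonic anhydrase gene CA12 fell by 0.72 and BNIP3L by 0.62, 2 of 26. In the NRF2 list the transporter ABCC3 fell by 1.06, while KEAP1, the inhibitor of NRF2, rose by 0.57 and MGST1, a glutathione transferase, by 0.79, 3 of 27 in all. PROM1, which encodes the stem cell marker CD133, was the single call among 21 Wnt target and crypt genes, at 6.84, 6.99 and 7.22 against 8.35, 8.61 and 8.36 (difference -1.42, SE 0.13, adjusted p 7.54e-04).

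Of 38 junction and keratin genes, 2 fell (5.26%), the recycling GTPase RAB25 by 0.67 and the splicing factor ESRP1 by 0.63, while the list's median was 0.05 with 22 of 38 above 0. PLA2G2A and MUC13, above, were the 2 calls among 20 goblet and secretory genes. ERBB3 fell by 0.77, 1 of 23 ERBB genes, and LCN2, the iron-binding lipocalin, by 0.72, 1 of 20 NF-kB targets. The interferon list had OAS1 lower by 0.60 and SAMD9 higher by 0.73, 2 of 22, and oxidative phosphorylation had SDHC lower by 0.56 and ATP5MC3 higher by 0.49, 2 of 37. RPL27A and RPL35A (0.68) were 2 of 24 cytosolic ribosomal protein genes, whose median was 0.27, in array 1 alone 0.10 and without array 1 0.37. Without array 1, 8 of 24 were called, but the share of all features called rose too, as given with the replication genes. CCN1 was the only call of 22 immediate early genes.

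In 10 of the 28 lists no member was called. They were the lamina, heterochromatin and Polycomb, DNA damage, p53 targets, senescence, brush border, mesenchymal, microRNA processing, leukocyte and endothelial lists. Their medians lay between -0.04 and 0.15. The p53 targets, 16 tested, ranged from -0.34 to 0.34, and the senescence and secretory factors, 12 tested, from -0.36 to 0.20.

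**Figure D4:**
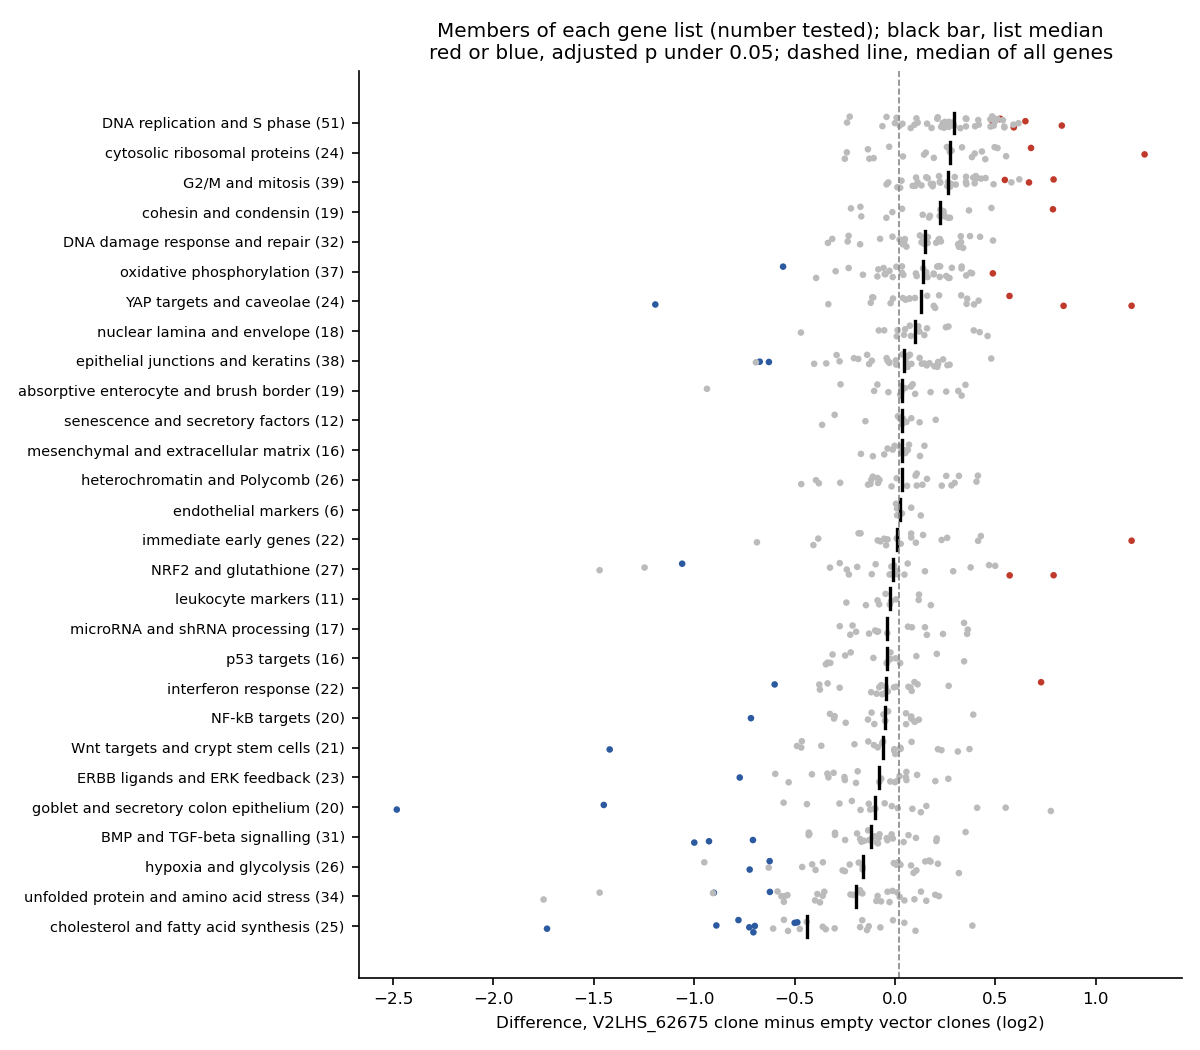
Each row is a gene list with its number of tested members, each point a member's log2 difference between the V2LHS_62675 clone and the empty vector clones, and each black bar the list's median; the dashed line is the median of all genes, 0.02. The cholesterol list has the lowest median (-0.44) and the replication list the highest (0.30).

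The next question was where this clone differed from clones of the other hairpin, which lowers the same target. Against clones 9 and 12 of V2LHS_62673, 241 features passed (2.15%), 104 higher (0.929%) and 137 lower (1.22%). This contrast shares the hairpin clone with the main comparison, and each gives its own values. The largest decreases were SATB1 (-2.58), CFTR (-2.18), NPNT (-2.08), NEO1 (-1.85) and LHFPL6 (-1.77). LHFPL6, a tetraspan membrane protein gene, was at 7.10, 6.91 and 6.83 in the hairpin arrays and at 9.40 and 8.04 in clones 9 and 12. The hairpin means of SATB1 and CFTR lay below and just above the filter level for dim probes, so their sizes are less certain.

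On the higher side CHI3L1, a secreted chitinase-like glycoprotein, was at 10.06, 10.13 and 10.07 in the V2LHS_62675 arrays, 7.74 and 7.97 in clones 9 and 12, 9.31, 9.68 and 9.72 in the empty vector clones and 9.47 in wild type cells. FSCN1, the actin bundler fascin, was at 9.61, 9.70 and 9.73 against 7.78 and 7.83, with 9.36 in wild type cells. In both it was clones 9 and 12 that stood below the controls. PTPRR (1.61), the goblet cell peptide gene SPINK4 (1.39) and PHLDB2 (1.36) followed, and SPINK4 was at 6.45 in array 1 and at 7.56 and 7.40 in the others, whose mean differed by 1.73.

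By group, 4 of the 25 cholesterol genes were lower against clones 9 and 12 and none higher, INSIG1 by -1.11 (SE 0.13, adjusted p 0.00322), IDI1 by -0.81, MSMO1 by -0.75 and LSS by -0.65, and the list's median was -0.15. MCM2 alone of the replication genes was higher, by 0.59. TGFB2, which fell against the empty vector clones, was lower by 1.73 here, since it stood at 9.80 and 10.37 in clones 9 and 12. Without array 1 the count of features was 960, without array 2 or 3 it was 141 and 112, and without empty vector clone 2 or 3, which enter only through the shared spread, it was 42 and 75. With clone 8 in the fit it was 0, and 250 had an unadjusted p under 0.05.

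Set against wild type cells, the hairpin clone differed in 23 features (0.205%), 5 higher (0.0447%) and 18 lower (0.161%), with 1 sample on each side and the spread of the other groups. CFTR (-2.21), PRKD3 (-1.77), CADPS (-1.58), SLAIN1 (-1.56) and UGT8 (-1.32), which makes galactosylceramide, were lowest. MRPS17, a mitochondrial ribosomal protein gene, was highest at 3.17, from a value of 5.74 in wild type cells where every other array used here was at 7.70 or more. HOXD10 (1.28), a homeobox gene, EHHADH (1.21), a peroxisomal enzyme gene, PTPRR (1.17) and IGFL4 (1.09) followed. No member of the cholesterol, replication or mitosis lists passed, and their medians against wild type cells were 0.07, -0.01 and -0.01, where the median of all genes was 0.02. The count was 5 without empty vector clone 3, 8 without clone 2 and 82 without clone 9 or clone 12.

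Some decreases lay next to each other in the genome. Tested genes were ordered by their positions in RefSeq (GRCh38), and medians were taken over runs of 51 neighbours, 10031 runs in all. The lowest was on chromosome 3, from ITIH1 to SHQ1, where the hairpin clone's median difference was -0.29. It was -0.39, -0.28 and -0.31 in the 3 hairpin arrays, -0.03, 0.05 and -0.03 in the empty vector clones, 0.11 in wild type cells and 0.08 and -0.01 in clones 9 and 12 of V2LHS_62673. Array 1 was low here with its repeats, and clone 12 of V2LHS_62673 was not. The run was chosen by a mean that includes array 1, so this says nothing on where array 1 belongs. Over all runs, single empty vector clones ranged from -0.15 to 0.21 around their mean, and 23 runs of the hairpin clone were under -0.2.

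Of the 51 genes in this run, 38 were below 0, 16 were called lower and none higher. Over all features, 2.21% were called lower and 1.55% higher, and 56.4% of all genes were above 0. The run was picked as the lowest, so these counts only describe it. The 6 with the largest decrease were SUCLG2, a subunit of the GTP-specific succinyl-CoA ligase (-1.43), FHIT, which spans a fragile site (-1.37), the transcription factor FOXP1 (-1.19), CADPS of vesicle release (-1.08), PXK (-1.02) and DENND6A (-0.95). FHIT was at 6.96, 6.72 and 6.81 in the hairpin arrays and at 7.97, 8.27 and 8.35 in the empty vector clones. FOXP1 was at 6.99, 6.81 and 6.91 against 8.05, 8.26 and 7.97, and SUCLG2 at 6.89, 7.79 and 7.95 against 8.99, 8.99 and 8.95. For SUCLG2 the mean of arrays 2 and 3 alone differed by -1.10 from the empty vector clones and by -0.60 from clones 9 and 12. With all 3 arrays, the 6 genes were also lower against clones 9 and 12, by 0.93 or more, at adjusted limma p of 0.0287 or less. The genes were picked by the same hairpin arrays, which enter this contrast too, so it is no separate support.

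A further pair of runs lay beyond 0.2 in size. From UGGT2 to CHAMP1 on chromosome 13 the median was -0.22 (arrays -0.15, -0.21 and -0.19; empty vector clones -0.03 to 0.04), with 10 genes called lower and none higher. From CRYGS to LMLN at the end of chromosome 3 it was 0.21 (arrays 0.21, 0.16 and 0.16; empty vector clones -0.05 to 0.04), with 6 called higher and none lower. These runs were picked for their medians, and 2.21% of all features were called lower and 1.55% higher. Chromosome 13 had the largest share of called genes, 9.57% of 188, and chromosome 19 the smallest, 1.37% of 804, where 3.76% of all features were called. Removing the running median of 51 neighbours left 248 features called in the main comparison. DNA copy number was not measured here.

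**Figure D5:**
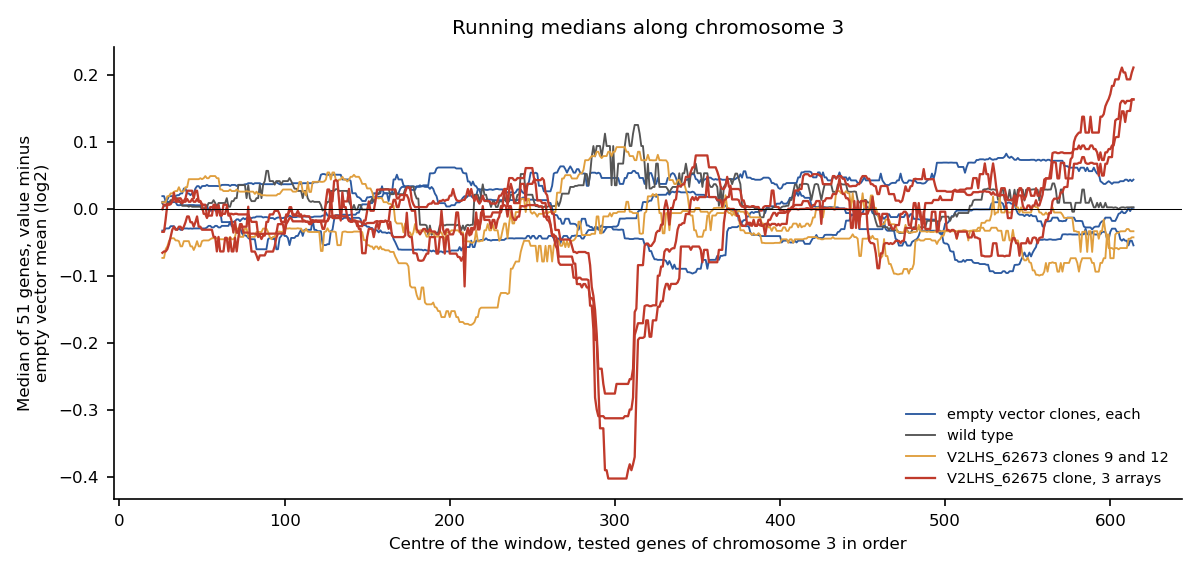
Lines are medians over 51 neighbouring tested genes of chromosome 3, in log2 units against the mean of the empty vector clones (y axis), placed by the order of the central gene (x axis); red lines are the 3 V2LHS_62675 arrays, blue the empty vector clones, grey wild type cells and orange clones 9 and 12 of V2LHS_62673. Only the red lines drop in the middle, to -0.40, -0.28 and -0.31, and the same lines rise at the right end, to between 0.16 and 0.21 in the run from CRYGS to LMLN.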

How the data were processed

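RNA of 10 DLD-1 samples was measured on arrays. The deposited table holds 1 value per probe and array on a log scale. Its base was taken as log2 from the range of the authors' values, and the background correction, normalization and genome build remain not given in the sources used here. Of 22011 probes, 14432 carry 1 gene symbol in the platform annotation, 2408 several and 5171 none. Each of 14232 genes was taken as its brightest probe, and probes below the 25th percentile of mean level (5.89) were left out.

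The 3 arrays of the V2LHS_62675 clone were averaged, and 7 clone-level samples in 4 groups were fitted with lmFit and eBayes (limma 3.58.1, R 4.3.3; 3 residual and 7.59 prior degrees of freedom), with Benjamini-Hochberg adjustment over 11197 features and a threshold of 0.05. Clone 8 of V2LHS_62673 was left out. Intervals are at the 95% level, and the number of arrays limits the precision. On simulated data with known changes the fit was tested before use.

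Genes named are the 15 largest non-overlapping differences each way, up to 4 of the smallest p in each of 28 lists, the 5 largest each way against the other groups, the 5 widest gaps of array 1 each way, and up to 6 called genes of a run. Other names, such as further called members of a list, were chosen after their values were seen. The groups compared, the lists, the naming rule and the exclusion of clone 8 were chosen with earlier results of these data known. Alternatives covered normalization, filter, probe choice, prior, samples in the fit, blocks, neighbours and each sample left out; applying them to the lists, and averaging arrays 2 and 3 alone for SPINK4 and SUCLG2, was chosen after seeing the data. Figures were drawn with matplotlib 3.10.9 in Python 3.11.15. Promoter sequences are from RefSeq (GRCh38.p14).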

Additional observations from a re-analysis of the deposited data

Results flagged for a closer look

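Of 38 genes examined, 17 differed between the clone of V2LHS_62675 and clones 9 and 12 of V2LHS_62673 in limma's test of that difference (adjusted p under 0.05), although both constructs target LMNB1. The count is a description: 10 of the 38 were chosen for their size in this same contrast and had to pass, and of the other 28, chosen as lamins or in the comparison with the empty vector clones, which shares the hairpin clone, 7 passed. Over all features the share was 2.15%. Lower in the V2LHS_62675 clone, as log2 differences, were SATB1 (-2.58), CFTR (-2.18), NPNT (-2.08), NEO1 (-1.85), LHFPL6 (-1.77), PRKD3 (-1.67), SULT1C2 (-1.49), PPARGC1A (-1.15) and INSIG1 (-1.11). Higher were IGFL4 (0.77), TNNC1 (0.95), MB21D2 (1.07), PHLDB2 (1.36), SPINK4 (1.39), PTPRR (1.61), FSCN1 (1.88) and CHI3L1 (2.23). The sizes for SATB1 and CFTR are less certain, as their hairpin means lay below and just above the filter level for dim probes. CHI3L1, FSCN1, SPINK4 and LHFPL6 did not pass against the empty vector clones, at adjusted p of 0.12, 0.139, 0.0662 and 0.0797. With 1 clone on this side, clone and construct cannot be told apart.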

How the results depend on the processing

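Against the empty vector clones, the 421 calls became 280 with no filter, 248 with the running median of neighbours removed, 717 with only the groups compared, 7 with wild type cells among the controls, 0 with clone 8 in the fit (298 at an unadjusted p under 0.05) and 1359 with the clone as a random block. Leaving out 1 sample at a time gave 72 to 1021. With arrays as replicates it was 1033, and 946 with the replicate block. The replicate numbers do not pair the samples (correlations of same-numbered deviations 0.03, -0.15 and -0.23). These settings, and the random block at a correlation of -0.056, treat the 3 arrays of 1 clone as separate samples. Their counts, here and in the other contrasts, therefore do not rest on the spread between clones. Against clones 9 and 12, the 241 calls became 160 with quantile normalization, 127 with median centring and also with no filter, 0 with clone 8 (250 unadjusted), 508 with the random block, 52 with the running median removed, and 42 to 960 leaving out 1 sample. Against wild type cells, the 23 calls became 10 with quantile normalization, 35 with the trended robust prior, 0 with clone 8 (70 unadjusted), 50 with the random block, 4 with the running median removed, and 5 to 82 leaving out 1 sample. The LMNB1 probe lost its call with clone 8 (-1.31, adjusted p 0.858) and with wild type cells among the controls (-1.44, adjusted p 0.0897), and was -1.38 to -1.21 leaving out 1 sample. LMNA was -0.0073 to 0.26 and LBR -0.0013 to 0.11 leaving out 1 sample. Each turned sign in 1 setting only, without array 2 or without array 3, and neither was called in any setting. The causes of these shifts were not tested. Dim probes, with a mean level below 5.89, were not tested in the fit, and signal over background is not given in the deposited table.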
